A study of Rattus norvegicus with 24 samples.

Results

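Sperm methylation was examined at 4 regions named after Nnat, Trappc9, Tdrd6 and Zfp42, a pair of genes known for imprinting and a pair known as markers of germ cells or pluripotent cells. All rows of the authors' age table that carry these gene names were taken, which gave 4 regions, 1 for each gene, of 5327 listed regions. The exposure table, with 30 regions, named these genes in 0 of its rows.

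The 24 Wistar males gave sperm of the cauda epididymis and formed 4 groups of 6. The groups were BDE-47 at postnatal day (PND) 120, BDE-47 at PND65, Control at PND120 and Control at PND65. The dams of the BDE-47 animals were fed the brominated flame retardant 2,2',4,4'-tetrabromodiphenyl ether in corn oil, at 0.2 mg/kg body weight a day from pregnancy day 8 to PND21, and the dams of the control animals were fed the oil alone. The pups were exposed only through the dam. A litter gave 1 male per age, and PND120 and PND65 animals of the same arm may therefore be brothers. Motile sperm had been spun through a density gradient to take out somatic cells. The assay was reduced representation bisulfite sequencing, which reads the share of methylated cytosines at CpG sites in CpG-rich restriction fragments.

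The authors give 1 methylation level per group and region. The spread between animals and the depth of a region are unknown, so no difference below was tested, and each is given as a description. A region is in the age table because its level differed with age at a q-value under 0.05 in controls, BDE-47 animals or both, and the table does not say in which. The age difference of a region is therefore part of how it came to be listed.

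Imprinted genes are expressed from the copy of a single parent, and the choice is set by methylation placed in the egg or in the sperm. At genes marked in the egg, the control region is unmethylated in sperm and carries methylation on the maternal copy in somatic cells. A set of germline genes has CpG-rich promoters that are unmethylated in germ cells and methylated in most somatic tissues, where the genes are silent. Nnat encodes neuronatin, a small membrane protein of the endoplasmic reticulum expressed from the paternal copy. Trappc9 encodes a subunit of the TRAPP complex of vesicle traffic, and in mouse its locus also holds Peg13, a non-coding RNA with a control region methylated in the egg. Tdrd6 encodes a Tudor-domain protein of the chromatoid body, an RNA granule of spermatids. Zfp42, also called Rex1, encodes a zinc-finger protein related to Yy1 and is a marker of pluripotent stem cells.

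The promoters of the germline and pluripotency members are shown because the assay reads CpG sites, and these sequences differ in how many they hold. Both are RefSeq sequences of assembly GRCr8, from 250 bases before to 50 bases after the start of the gene, printed 5' to 3' with each CpG in capitals. Of the 4 members, 2 matched the promoter table. The Tdrd6 promoter lies on the plus strand at chr9:24841204-24841503 and the Zfp42 promoter on the plus strand at chr16:55568653-55568952, both on GRCr8.
Tdrd6 promoter: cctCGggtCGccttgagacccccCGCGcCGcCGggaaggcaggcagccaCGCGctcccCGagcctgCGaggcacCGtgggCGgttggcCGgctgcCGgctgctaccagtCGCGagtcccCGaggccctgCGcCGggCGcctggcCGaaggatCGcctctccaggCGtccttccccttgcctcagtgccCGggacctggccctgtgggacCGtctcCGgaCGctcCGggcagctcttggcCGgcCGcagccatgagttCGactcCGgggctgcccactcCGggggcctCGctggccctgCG
Zfp42 promoter: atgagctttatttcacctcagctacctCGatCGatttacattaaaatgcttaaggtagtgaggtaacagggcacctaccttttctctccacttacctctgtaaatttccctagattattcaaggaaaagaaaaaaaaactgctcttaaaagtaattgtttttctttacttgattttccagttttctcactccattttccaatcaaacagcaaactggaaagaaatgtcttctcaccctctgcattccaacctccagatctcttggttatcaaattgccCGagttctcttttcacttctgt
The Tdrd6 promoter held 35 CG pairs in its 300 bases, and 6.55% of the 27457 promoters of the same length held as many or more. The Zfp42 promoter held 3, and 29.6% of promoters held as few or fewer. The median over all promoters was 7, with quartiles of 3 and 20, and 94.8% held at least 1. The motif CCGG, which is the same on both strands, is the site of the enzyme MspI used in many assays of this kind, and its letters overlap a CG pair. It was found 10 times in the Tdrd6 window, in 0 places in the Zfp42 window and at least once in 53.0% of all promoters. The methylation regions are on rn6, so they were not placed on these bases.

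On rn6 the 4 regions differed in where they lay and in how dense their CpGs were. Of the 4 regions, 2 lay in the gene body, at Trappc9 and Tdrd6, against 79.7% of all listed regions. The Trappc9 region ran on chromosome 7 from 114308584 to 114308873, with 6 CpGs over 289 bp. The Tdrd6 region ran on chromosome 9 from 19917788 to 19917907, with 9 CpGs over 119 bp, or 1 CpG per 13.2 bp. Its CpG number was above that of 86.8% of listed regions, whose median was 4. No exon or intron was assigned within either gene.

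The other regions lay outside the gene that names them. The Nnat region ran on chromosome 3 from 154054454 to 154057072, with 4 CpGs over 2618 bp, 8121 bp from the gene. By the sign of the distance it lay at higher coordinates than Nnat, which is on the plus strand, and so on the 3' side. In the RefSeq annotation of GRCr8, Nnat lies within the span of Blcap, a gene known to be imprinted in mouse brain. The Zfp42 region ran on chromosome 16 from 51860568 to 52015390 and ended 1191 bp from the gene, on its 5' side by the same reading. It spanned 154.8 kb with 9 CpGs, or 1 per 17202 bp, and was longer than 98.3% of listed regions. Its CpG number, like that of Tdrd6, was above that of 86.8% of listed regions, but the sites were widely scattered. Neither region measures the gene's own promoter or body, so the levels there do not report on a germline or imprinted promoter.

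At the Nnat region both arms were more methylated at PND120 than at PND65, by almost the same amount. The level was 80.2% at PND120 and 66.5% at PND65 in BDE-47 animals, against 80.2% at PND120 and 67.0% at PND65 in controls. The age difference was 13.7 points in BDE-47 animals and 13.2 points in controls. The arms differed by -0.00842 points at PND120 and by -0.572 points at PND65 (BDE-47 minus control), far less than the difference with age in either arm. These levels were high for the table: the PND65 control level was above that of 98.6% of listed regions, whose median was 0.936%. The region was mostly methylated in every group, and it lies outside Nnat, so this level says nothing of the Nnat control region.

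The Trappc9 region was low in all groups, and its levels differed with age by over 10 points in controls and by under 1 point in BDE-47 animals. It had 11.6% at PND120 and 11.5% at PND65 in BDE-47 animals, against 17.1% at PND120 and 4.58% at PND65 in controls. The age difference was 0.0783 points in BDE-47 animals and 12.5 points in controls. The BDE-47 level was 5.52 points below the control level at PND120 and 6.95 points above it at PND65. Though low, its PND65 control level was above that of 66.3% of listed regions, and of 84.8% of those under 10%. The control age difference was larger than in 83.7% of listed regions. Whether the region overlaps the rat counterpart of the Peg13 control region was not tested.

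The Tdrd6 region was the least methylated of the 4 regions in every group. It had 4.35% at PND120 and 5.23% at PND65 in BDE-47 animals, against 7.50% at PND120 and 0.328% at PND65 in controls. The age difference was -0.876 points in BDE-47 animals and 7.17 points in controls. BDE-47 animals were 3.14 points lower than controls at PND120 and 4.90 points higher at PND65. A PND65 control level under 10% was found at 78.2% of listed regions, so a low level is not particular to Tdrd6. In all groups the Tdrd6 level stayed far below a fully methylated state, such as germline gene promoters are known for in somatic cells. The tables hold no somatic sample to set beside it, and whether the region reaches the promoter was not tested.

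At the Zfp42 region methylation was intermediate, and controls at PND120 stood apart from the other groups. It had 40.8% at PND120 and 42.9% at PND65 in BDE-47 animals, against 48.4% at PND120 and 42.3% at PND65 in controls. The age difference was -2.09 points in BDE-47 animals and 6.08 points in controls, so its sign differed between the arms. BDE-47 animals were 7.58 points below controls at PND120 and 0.592 points above them at PND65. The control age difference was among the smaller ones, above that of 6.55% of listed regions.

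**Figure D1:**
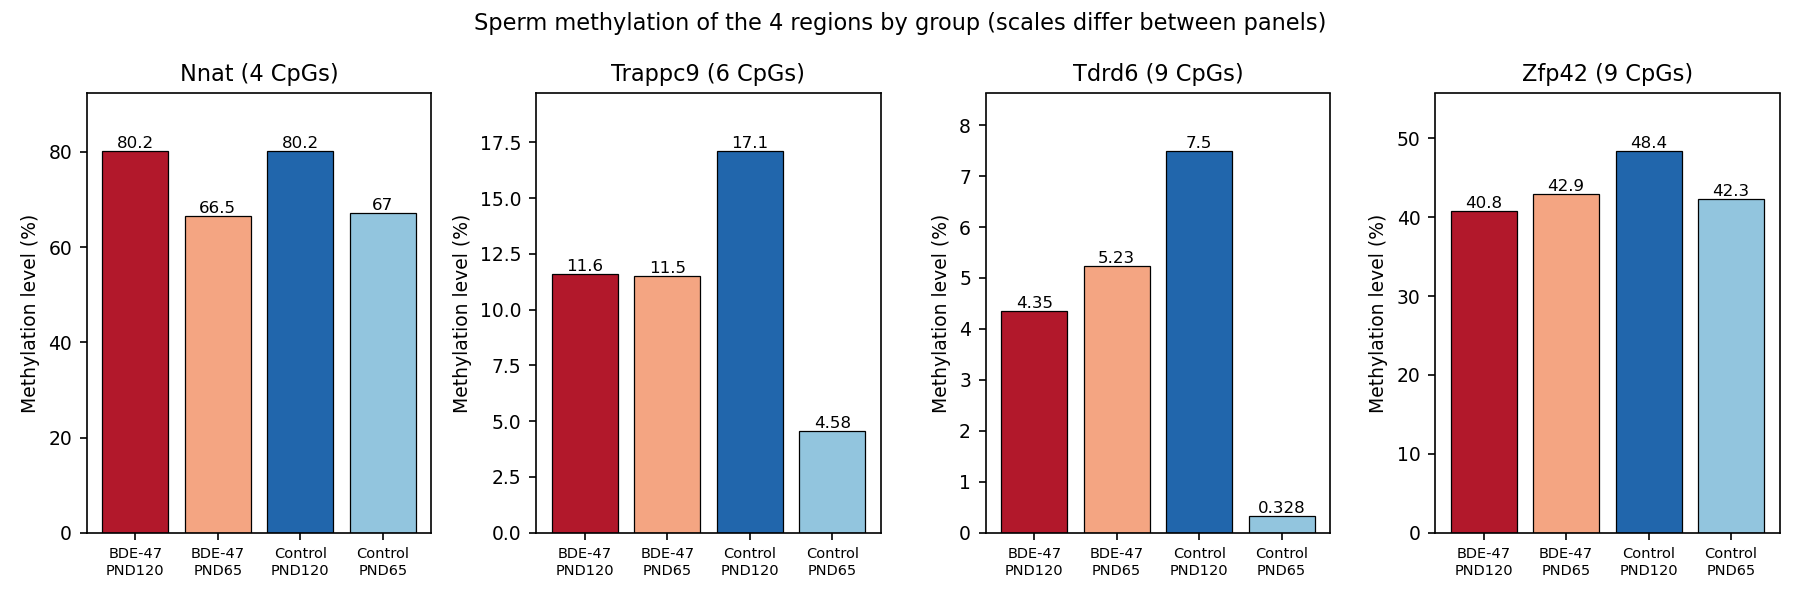
Methylation level in percent (vertical axis, starting at 0, with a different scale in each panel) of the 4 regions in the authors' 4 group values; bars carry no error because 1 value per group was deposited. Nnat has a higher bar at PND120 in both arms, while at Trappc9, Tdrd6 and Zfp42 the tallest bar is that of controls at PND120, with 17.1%, 7.50% and 48.4%.

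Set beside all listed regions, the direction in controls did not set the 4 regions apart. All 4 were higher at PND120 than at PND65 in controls, as were 99.2% of listed regions. The median control age difference was 9.86 points over the 4 regions and 9.30 points over all listed regions. In BDE-47 animals the medians were -0.399 points over the 4 regions and -0.384 points over all. An age difference of at least 5 points upward in BDE-47 animals was found at 1 of the 4, Nnat, and at 2.57% of listed regions. This share rose with the level: it was 19.4% where the PND65 control level was at least 30%, as at Nnat, and 0.192% where it was under 10%. A difference of at least 5 points upward in both arms was likewise found at Nnat alone of the 4 and at 2.5% of listed regions. At 13.7 points Nnat ranked 24 of 5327 by this difference, and 21 of 563 among regions whose PND65 control level was at least 30%.

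At PND120 methylation was lower in BDE-47 animals than in controls at all 4 regions and at 90.2% of listed regions, though at Nnat by only 0.00842 points. At PND65 it was higher in BDE-47 animals at 3 of the 4 regions, the exception being Nnat, and at 93.7% of listed regions. Both BDE-47 values fell inside the control range at 2 of the 4, Trappc9 and Tdrd6, and at 82.1% of listed regions. The control values were at least 5 points apart in 5316 of the 5327 regions, so the listing itself sets them apart. The comparisons of arms at PND65 and at PND120 and of ages within each arm share the same 4 values per region and are not independent.

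The place of the BDE-47 level along the control range shows how the 4 regions differed. On a scale where the control PND65 level is 0% and the control PND120 level is 100%, BDE-47 animals stood at 56.0% at PND120 and 55.4% at PND65 at Trappc9. At Tdrd6 they stood at 56.2% at PND120 and 68.4% at PND65. Both genes were close to the medians of all regions that were higher at PND120 in controls, 56.0% at PND120 and 60.6% at PND65. At Nnat the places were 99.9% at PND120 and -4.35% at PND65, so BDE-47 animals matched the controls of their own age. At Zfp42 they were -24.7% at PND120 and 9.74% at PND65, so BDE-47 animals of both ages were close to or below the younger controls.

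**Figure D2:**
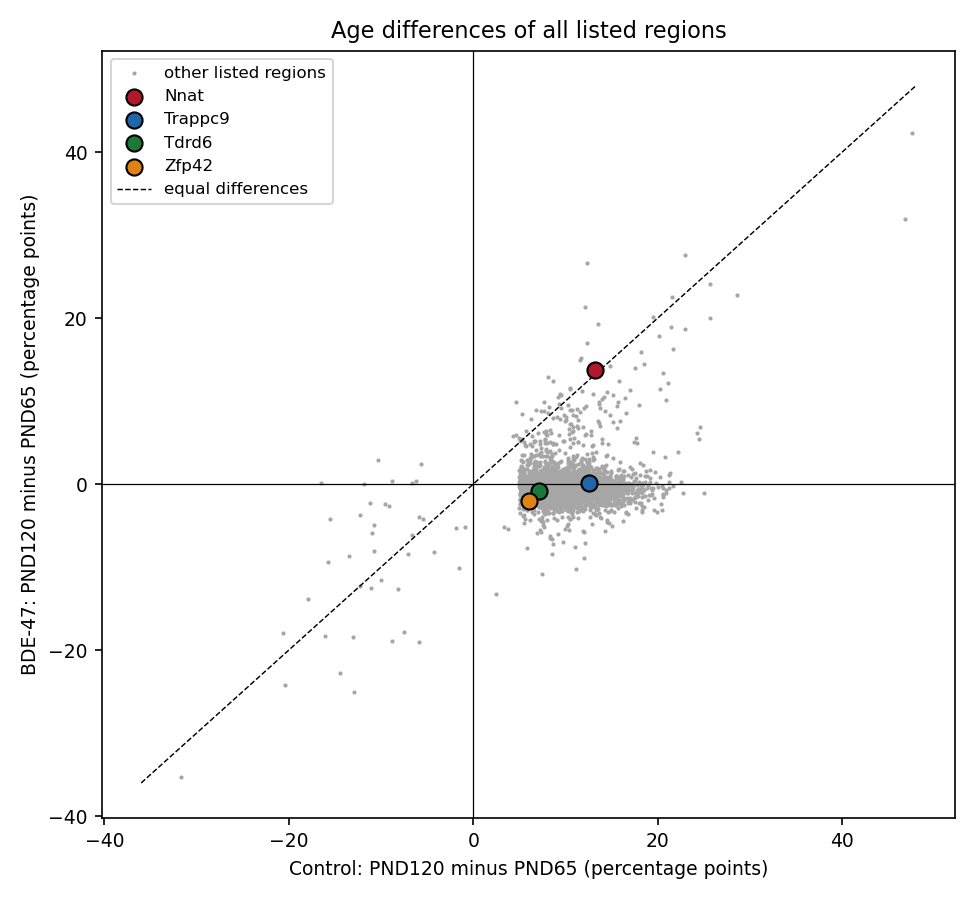
Each point is 1 of the 5327 listed regions, with its PND120 minus PND65 difference in percentage points in controls (horizontal axis) and in BDE-47 animals (vertical axis); the dashed line marks equal differences. Nnat, at 13.2 and 13.7 points, lies close to the dashed line. Trappc9 and Tdrd6 lie near 0 on the vertical axis, and Zfp42 lies lower, at -2.09 points, above 7.17% of listed regions.

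The closeness of the arms at Nnat was rare in the table. A control gain of at least 5 points with both arms within 1 point of each other at both ages was found at 3 regions, or 0.0563% of those listed, a limit chosen after the Nnat values were seen. Besides Nnat these were Tcf3, a helix-loop-helix transcription factor, and Galnt6, an enzyme that starts mucin-type glycosylation. Tcf3 had 75.2% at PND120 and 65.7% at PND65 in BDE-47 animals, against 75.2% at PND120 and 65.0% at PND65 in controls. Galnt6 had 66.7% at PND120 and 61.8% at PND65 in BDE-47 animals, against 67.7% at PND120 and 61.5% at PND65 in controls. Like Nnat, both were mostly methylated in every group. All 3 had a PND65 control level of at least 30%, as did 563 of the 5327 listed regions, so their share is larger within that class.

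For the Zfp42 pattern a different rule was used, with no limit on the gap between the arms at PND120. Its count therefore cannot be set beside that of Nnat. A control gain of at least 5 points, arms within 1 point at PND65 and a lower level at PND120 than at PND65 in BDE-47 animals was found at 77 regions, or 1.45%, with limits again chosen after its values were seen. Over the 157 listed regions longer than 100 kb, the median age difference was -0.160 points in BDE-47 animals and 8.16 points in controls, and 55.4% had a negative difference in BDE-47 animals. Over all listed regions that share was 66.9%. These long regions had a median PND65 control level of 33.4%, against 0.936% over all listed regions.

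Likeness between regions was measured as the Euclidean distance over the 4 group levels, in percentage points. The regions nearest to Nnat were at Creb3l2, a membrane-bound transcription factor, at 2.27 points, Med26, a Mediator subunit, at 3.40 points, and RGD1560648 at 4.98 points. Creb3l2 had 78.9% at PND120 and 66.5% at PND65 in BDE-47 animals, against 81.4% at PND120 and 65.6% at PND65 in controls. Its region spanned 322.8 kb with 6 CpGs. Only these 3 regions lay within 5 points of Nnat.

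The regions nearest to Trappc9 were at the Polycomb gene Cbx2 (0.924 points), the kinesin gene Kif5c (1.04 points) and Vopp1 (1.16 points), and 565 regions lay within 5 points. Those nearest to Tdrd6 were at the cardiolipin synthase gene Crls1 (0.252 points), Maneal (0.263 points) and Mcfd2 (0.271 points), a cargo receptor partner of the early secretory pathway. The Tdrd6 pattern was a common one, with 189 regions within 1 point and 1834 within 5 points. Those nearest to Zfp42 were at LOC100910717 (2.66 points), the mitochondrial outer membrane gene Miga2 (2.96 points) and the zinc-finger gene Patz1 (2.99 points), and 19 regions lay within 5 points.

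None of the 4 regions overlapped another listed region. Within 1 Mb there were 3 other listed regions around Nnat, 1 around Tdrd6 and 0 around Trappc9 and Zfp42. The 3 around Nnat were all far less methylated than Nnat. Each had a PND65 control level under 10%, as did 78.2% of listed regions. Mroh8, 656.1 kb below it, had 3.82% at PND120 and 3.95% at PND65 in BDE-47 animals, against 7.34% at PND120 and 0.403% at PND65 in controls. At Manbal, 563.0 kb below it, methylation was 9.44% at PND120 and 8.78% at PND65 in BDE-47 animals, against 12.0% at PND120 and 0.192% at PND65 in controls. At LOC100911534, 794.0 kb above it, the level was 7.31% at PND120 and 7.03% at PND65 in BDE-47 animals, against 15.0% at PND120 and 4.46% at PND65 in controls.

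The nearest listed regions to the other members were low in every group. Their PND65 control levels were under 10%, as in 78.2% of listed regions. LOC100911515, 295.7 kb from Tdrd6, had 9.77% at PND120 and 10.2% at PND65 in BDE-47 animals, against 14.5% at PND120 and 0.686% at PND65 in controls. The next region to Trappc9 was 1.64 Mb away at Jrk, with 9.67% at PND120 and 10.1% at PND65 in BDE-47 animals, against 13.8% at PND120 and 2.60% at PND65 in controls. The next to Zfp42 was 1.36 Mb away at the protocadherin-like gene Fat1, with 7.51% at PND120 and 7.69% at PND65 in BDE-47 animals, against 10.6% at PND120 and 0.592% at PND65 in controls. Of 26 chromosomal neighbours of the 4 genes, 2 (7.69%) had a listed region, Manbal and Fat1, against 15.7% of RefSeq protein-coding genes. Blcap and Kcnk9, both known as imprinted in mouse brain, had none, like most genes, and whether the assay covered them is unknown.

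Related genes of each pathway were taken from lists, whose counts stand against the 15.7% of 23154 RefSeq protein-coding genes that had a listed region. The members were chosen because they had a listed region, so a list that holds a member counts it in advance. A gene is listed only if the assay covered it, and coverage is not given in the table. Of 36 imprinted genes marked in the egg, Nnat and Trappc9 were the 2 with a listed region, and of 7 genes at imprinted loci methylated in sperm, 0 had one. Of 56 germline genes methylated in somatic cells, Tdrd6 and Zfp42 were the 2. These shares are 5.56%, 0% and 3.57%, and the first and last rest on the members alone. The list of 36 also holds non-coding genes such as Peg13, and 31 of its genes matched RefSeq names. Its share is therefore not on the same base as the 15.7%. A gene without a listed region may have differed little with age or may not have been covered, and the table does not tell these apart. None of the genes of any list was named in the exposure table, which with 30 regions can name few genes of any kind.

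The Tudor-domain and piRNA pathway list had 32 genes, of which 5 (15.6%) had 8 listed regions. One of the 5, the testis development gene Tdrp, has no Tudor domain and is left out of what follows, a choice made after its values were seen. The other 4 of 31 genes (12.9%), Tdrd6 among them, had 7 regions. These were all higher at PND120 in controls, as were 99.2% of listed regions. All 7 had a PND65 control level under 10%, as did 78.2% of listed regions, 2 of the 4 members among them. The 6 regions other than Tdrd6 had PND65 control levels of 0.183% to 3.34%, with age differences of -2.09 to 0.373 points in BDE-47 animals and 6.71 to 14.6 points in controls. They lay at Tdrd7, another Tudor protein of the chromatoid body, at the Tudor nuclease gene Snd1 and at Akap1, a mitochondrial anchor protein with a Tudor domain. Snd1 had the most, 3 regions, and the one with the widest control difference had 8.34% at PND120 and 7.97% at PND65 in BDE-47 animals, against 14.8% at PND120 and 0.183% at PND65 in controls. In all 7 regions both BDE-47 values fell inside the control range, as in 82.1% of listed regions.

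Of 28 pluripotency genes, 8 (28.6%), 7 of them besides Zfp42, had 10 listed regions. All 10 were higher at PND120 in controls, as were 99.2% of listed regions. The PND65 control level was under 10% in 8 of the 10, close to the 78.2% of all listed regions. In 9 of the 10 both BDE-47 values fell inside the control range, against 82.1% of listed regions, and Zfp42 was the exception. Yy1, the transcription factor that Zfp42 is related to, had 4.68% at PND120 and 5.29% at PND65 in BDE-47 animals, against 10.3% at PND120 and 0.338% at PND65 in controls. At Sox2, a core factor of pluripotency, the level was 8.11% at PND120 and 8.32% at PND65 in BDE-47 animals, against 14.1% at PND120 and 0.711% at PND65 in controls. A region of 21 CpGs in the body of the T-box gene Tbx3 had 63.1% at PND120 and 49.8% at PND65 in BDE-47 animals, against 64.1% at PND120 and 43.6% at PND65 in controls. It was the only region of these lists beside Nnat with an age difference of at least 5 points in BDE-47 animals, 13.4 points.

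Of 16 TRAPP subunit genes, 3 (18.8%) had a region, 2 of them besides Trappc9. Trappc6b had 8.01% at PND120 and 7.71% at PND65 in BDE-47 animals, against 16.2% at PND120 and 0.256% at PND65 in controls. Trappc14, listed under its older name RGD1305455, had 7.80% at PND120 and 6.57% at PND65 in BDE-47 animals, against 10.9% at PND120 and 2.35% at PND65 in controls. Trappc9 therefore had the highest PND65 level of the 3 in both arms.

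**Figure D3:**
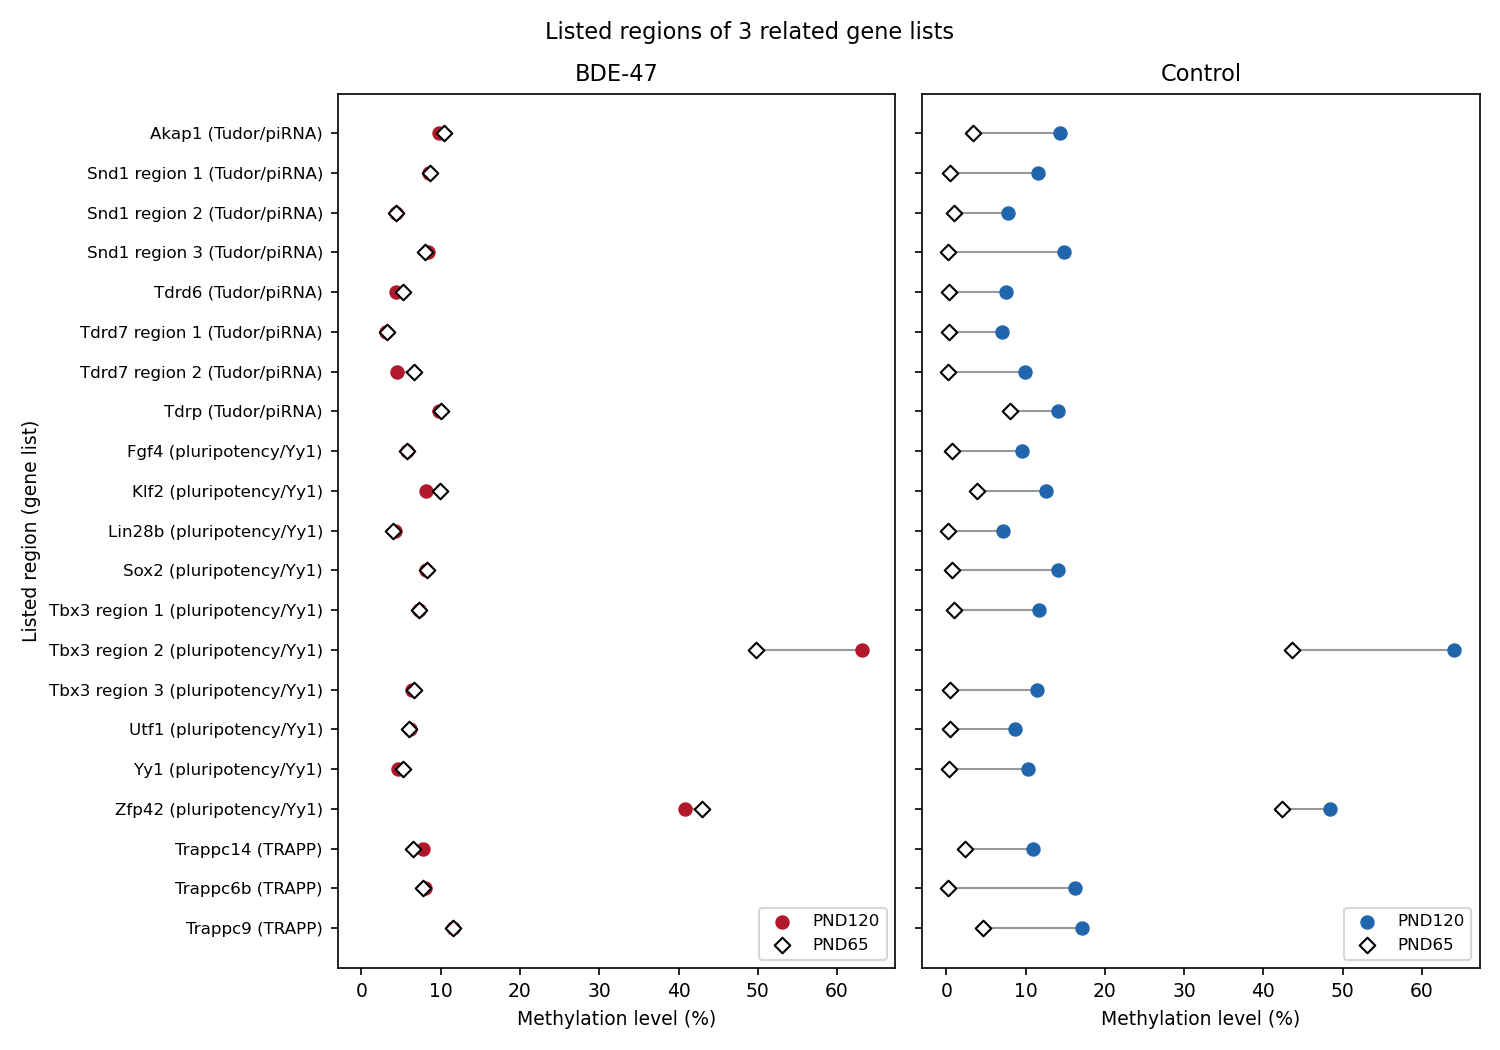
Methylation level in percent (horizontal axis) of the listed regions of the Tudor and piRNA, pluripotency and TRAPP gene lists, with BDE-47 animals in the left panel and controls in the right; filled circles are PND120 and open diamonds PND65, joined by a line. Tdrp is drawn with the Tudor list but has no Tudor domain. The ages lie far apart in controls and almost together in BDE-47 animals, except at the Tbx3 region with 63.1% and 49.8%.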

How the data were processed

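The tables are the authors' lists of differentially methylated regions. The series' design text says that reads were mapped to rn6, that nudup 2.2 removed duplicates, that CpGs needed at least 10 reads, and that MethPipe called the regions and closest-features 2.4.25 annotated them. Bismark 0.16.1 and Bowtie2 2.2.9 are named in the submitters' processing notes. Per the file headers, regions had a q-value under 0.05 and at least 3 CpGs. Group levels in the age table are fractions that the authors deposited, 1 for each group. How animals were combined, and the depth per sample, are not given in the sources used here. The deposited columns of signed scores are age differences in percentage points and distances in bp, and CpG counts per region are also the authors'. The exposure table served for gene names and the sign of distances.

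Fractions were multiplied by 100 and differences taken from them matched the authors' columns within 1.42e-14 points. Positive distances were read as a gene at higher coordinates, with 0 mismatches in 17 exposure rows with gene coordinates. The strand column was read as the gene's, which RefSeq shares for 95.0% of 3759 regions. Coordinates are as deposited, and whether they are 0-based or 1-based is unknown. Of 179 list genes, 171 matched GRCr8 names. No test was made, because 0 columns hold single animals. Counts were checked on simulated data. Named genes were the members, list genes with a region, the 3 closest patterns and the nearest listed regions. The members and lists were chosen with earlier results of these data known. Python 3.11.15, pandas 2.3.3 and numpy 2.4.6 were used. Alternatives covered the distance to the gene, the number of CpGs, the size of a difference and the regions used for comparison.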

Additional observations from a re-analysis of the deposited data

How the results depend on the processing

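With 1 value per group, no animal could be left out, the coverage minimum could not be changed, and no spread can be set beside any difference. No paired analysis was possible because the columns carry no animals. A minimum of 4 CpGs removed none of the 4 regions, so no count or median could change, and at least 10 CpGs left none of them. Within gene bodies, 2 of 2 regions were higher at PND120 in controls and 2 of 2 had a lower BDE-47 level at PND120. With a control difference of at least 10 points, which left Nnat and Trappc9, 2 were higher at PND120 in controls, 2 had a lower BDE-47 level at PND120, 1 a higher BDE-47 level at PND65, and 1 lay between the control levels. The median BDE-47 age difference then turned to 6.90 points, by construction, since it is the mid-point of those regions. Without these limits, 99.2% of listed regions were higher at PND120 in controls, and 90.2% had a lower BDE-47 level at PND120. A higher BDE-47 level at PND65 was found at 93.7%, and 82.1% lay between the control levels at both ages. Counting only arm differences of at least 5 points left 2 regions lower with BDE-47 at PND120, Trappc9 and Zfp42, and 1 higher at PND65, Trappc9. Over all listed regions the median arm difference (BDE-47 minus control) was -4.11 points at PND120 and 5.65 points at PND65. Most listed regions therefore passed the 5-point limit at PND65. Among regions of like PND65 control level, the share with a smaller BDE-47 age difference was 96.3% at Nnat, 74.9% at Trappc9, 31.8% at Tdrd6 and 9.24% at Zfp42, against 99.5%, 69.9%, 30.2% and 7.17% among all. For the control age difference it was 89.3% at Nnat, 14.9% at Tdrd6 and 24.2% at Zfp42, against 87.3%, 19.3% and 6.55% among all.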
